A study of Rattus norvegicus with 27 samples.

Results

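The genes described here encode glycine receptors, ClC proteins and cation-chloride cotransporters. They were taken as every probe set with 1 gene symbol in the platform annotation for Glra1 to Glra4, Glrb, Gphn, any gene named Clcn followed by a digit, and any gene named Slc12a. The rule found 18 probe sets of 15 genes, of 12913 probe sets tested, and all 18 entered the tests because no filter on signal was applied. The members were Glra1, Glra2 and Glrb, Clcn1 to Clcn7, and Slc12a1, Slc12a2, Slc12a4, Slc12a7 and Slc12a8. Glra3, Glra4 and Gphn had no such probe set and were not analysed here. Slc12a5, which encodes the main chloride extruder of neurons, was not analysed here either.

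The samples were tail motor neurons of adult male Wistar rats, laser-dissected from the sacral cord after retrograde labelling with Fluorogold, with 100 to 200 neurons per sample in the sample labels and a lower minimum in the series text. Spi-21 (8 arrays) and Spi-60 (8 arrays) came from rats whose cord had been transected at S2, 21 and 60 days earlier. ShamC-21 (6 arrays) and ShamC-60 (5 arrays) came from rats 21 and 60 days after a laminectomy that left the dura intact. Operated rats of both kinds received buprenorphine for pain. RNA was amplified in 2 rounds before hybridisation to Affymetrix rat arrays, and the values are log2 signals after RMA, which removes background, puts all arrays on a common scale and combines the probes of each set. The labels number the samples as biological replicates but tie none to an animal or a batch, so the p-values cover only the spread among the samples at hand.

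Glycine and GABA inhibit an adult motor neuron because they open chloride channels while the chloride inside the cell is low. Glycine receptors are built of alpha subunits, which bind glycine, and the beta subunit, which binds the scaffold protein gephyrin. Potassium-chloride cotransporters move chloride out of the cell and the sodium-potassium-chloride cotransporters move it in. Some ClC proteins are chloride channels of the plasma membrane, and others exchange chloride for protons across the membranes of endosomes, synaptic vesicles and lysosomes.

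The mean of the motor neuron markers was high in nearly all arrays, but not every marker was high. Averaged over all arrays, Nefh, Nefl, Nefm, Prph, Calca and Slc5a7 read 14.28, 14.01, 13.56, 12.97, 12.63 and 10.86 log2. Slc18a3 read 7.54, and Isl1, Isl2, Chrna4 and Mmp9 read 6.09, 5.91, 5.63 and 5.43. The mean log2 signal of 11 measured markers lay between 9.78 and 10.04 in Spi-21, 9.89 and 10.05 in ShamC-21, 9.88 and 10.09 in Spi-60, and 8.74 and 10.00 in ShamC-60. The lowest was ShamC-60 replicate 4, which also had the highest mean of 8 inhibitory interneuron markers, 7.06. ShamC-60 replicate 1 had the highest mean of 8 oligodendrocyte markers, 8.98. The Spi-21 arrays split on the GAPDH control, whose 3' minus 5' difference ran from 2.57 to 3.47 log2 over replicates 1 to 4 but from 0.98 to 1.46 over replicates 5 to 8. The beta-actin 3' minus 5' difference did not overlap between operations, at 2.86 to 3.60 in Spi-21 against 1.97 to 2.65 in ShamC-21, and 2.75 to 3.77 in Spi-60 against 1.92 to 2.42 in ShamC-60. Because the beta-actin difference separated the operations at both days, its part cannot be told apart from that of transection, with or without single arrays. The part of the other values in the results below was not tested, except where a value without the arrays is given.

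Clcn3, a chloride/proton exchanger of endosomes and synaptic vesicles, had the largest difference of the 15 genes at each day. Both of its probe sets were higher after transection at 21 and 60 days, and no transected array overlapped a sham array. Only small differences, under 0.40 log2, separated the groups for Glra1, Glra2 (1 of its probe sets), Clcn6 and Slc12a7 where these passed the test. The other Glra2 probe set was lower, by 1.07 log2 at 60 days, where the call was lost without 1 sham array, and by 0.74 log2 in the mean of both days, where it was not. Glrb and Slc12a2 did not pass at either day.

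The RefSeq promoters of the most changed gene and of another ClC gene are shown, because Clcn3 has a start with a full cyclic AMP response element (TGACGTCA) and Clcn6 has a pair of E-boxes of the form CACGTG. Each sequence runs from 250 bases before to 50 bases after an annotated start in the GRCr8 build, 5′ to 3′ on the gene's strand, with the motif in capitals. The upstream start of Clcn3 lies in chr16:34137754-34138053 on the plus strand, its downstream start in chr16:34165294-34165593 on the plus strand, and that of Clcn6 in chr5:163748149-163748448 on the minus strand.
Clcn3 upstream start: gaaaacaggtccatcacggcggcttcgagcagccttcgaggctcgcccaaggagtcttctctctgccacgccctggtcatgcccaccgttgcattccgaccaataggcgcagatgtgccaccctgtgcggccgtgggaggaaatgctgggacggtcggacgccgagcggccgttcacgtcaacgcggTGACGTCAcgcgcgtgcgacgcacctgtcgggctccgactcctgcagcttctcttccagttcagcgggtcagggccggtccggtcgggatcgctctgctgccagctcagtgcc
Clcn3 downstream start: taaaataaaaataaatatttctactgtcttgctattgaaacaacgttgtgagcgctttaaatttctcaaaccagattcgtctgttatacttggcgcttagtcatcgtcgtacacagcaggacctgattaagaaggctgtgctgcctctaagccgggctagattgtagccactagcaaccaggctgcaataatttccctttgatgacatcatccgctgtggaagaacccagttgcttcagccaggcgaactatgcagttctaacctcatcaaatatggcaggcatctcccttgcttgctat
Clcn6 start: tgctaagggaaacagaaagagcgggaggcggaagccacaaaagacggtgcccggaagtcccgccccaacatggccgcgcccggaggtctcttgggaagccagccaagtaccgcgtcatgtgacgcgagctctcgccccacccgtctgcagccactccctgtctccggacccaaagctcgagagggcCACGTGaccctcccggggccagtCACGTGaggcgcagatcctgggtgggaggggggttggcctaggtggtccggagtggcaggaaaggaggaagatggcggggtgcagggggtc

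The Clcn3 starts lie 27540 bases apart and differ in base composition. The upstream promoter has 33 CG dinucleotides and a GC content of 66.0%, and the downstream one has 9 and 43.7%. TGACGTCA begins 63 bases before the upstream start and is in no other of the 17 member promoters found. It occurs in 612 of 33469 RefSeq promoters of this length, 1.83%. CACGTG begins 64 and 41 bases before the Clcn6 start and also occurs once in the promoters of Clcn4, Clcn7 and Slc12a7, against 6.42% of all promoters. Each motif reads the same on both strands, the motifs do not overlap here, and they were chosen after the sequences had been seen. Promoters were found for 14 of the 15 genes. The array values do not say which Clcn3 start was used.

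At 21 days the Clcn3 probe set 1392453_at had a lowest, median and highest log2 signal of 7.94, 9.20 and 9.51 in Spi-21 and of 5.85, 7.04 and 7.24 in ShamC-21. All 8 Spi-21 arrays lay above all 6 ShamC-21 arrays, with a gap of 0.71 log2 between the groups. The limma fit gave a difference of 2.20 ± 0.256 (SE), or 4.60-fold, with an adjusted p of 2.31e-06. This was the third largest rise among all probe sets tested. A change in the number of cells of a type and a change in RNA per cell cannot be told apart in such pooled samples.

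At 60 days the same probe set had a lowest, median and highest signal of 8.38, 9.20 and 9.80 in Spi-60. The ShamC-60 arrays read 6.64, 6.57, 7.14, 6.84 and 6.00. The groups again did not overlap, and the gap between them was 1.24 log2. The difference was 2.41 ± 0.270, or 5.33-fold (limma adjusted p = 1.06e-06), the second largest rise of the day.

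The other Clcn3 probe set, 1380547_at, showed the same separation. Its lowest, median and highest signals were 6.76, 7.06 and 7.88 in Spi-21, against 5.48, 6.21 and 6.47 in ShamC-21. The difference at 21 days was 1.06 ± 0.171, or 2.08-fold (limma adjusted p = 0.000146). Every Spi-21 array exceeded every ShamC-21 array, by at least 0.29 log2. At 60 days the signals were 7.22, 7.35 and 7.85 in Spi-60, and the ShamC-60 arrays read 6.28, 5.81, 5.76, 6.20 and 5.34. The difference was 1.58 ± 0.181, or 2.99-fold (limma adjusted p = 1.37e-06), with a gap of 0.94 log2 between the groups. Which transcripts each probe set reads is not given in the sources used here.

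**Figure D1:**
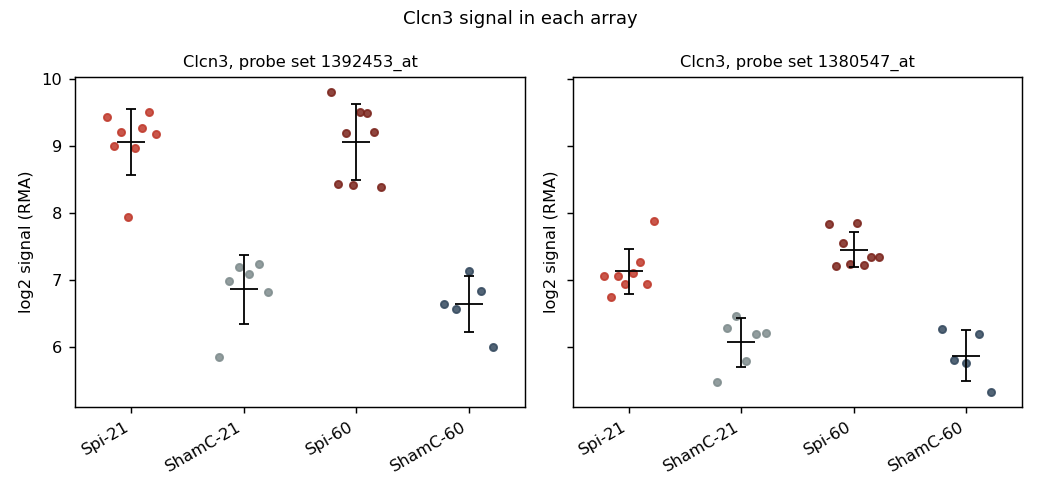
Log2 signal (y axis) of both Clcn3 probe sets in each array, by group (x axis); points are arrays, horizontal lines are group means and bars are SD. All transected arrays lie above all sham arrays of the same day in both panels.

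The Clcn3 difference was not shown to change between days. For 1392453_at the difference at 60 days minus that at 21 days was 0.21 log2 (95% interval −0.55 to 0.97, limma adjusted p = 0.946). For 1380547_at it was 0.52 (0.01 to 1.03, unadjusted p = 0.0452, limma adjusted p = 0.703). Within transected rats, Spi-60 minus Spi-21 was −0.01 (−0.50 to 0.47) for 1392453_at and 0.32 (−0.0003 to 0.65) for 1380547_at. Within sham rats, ShamC-60 minus ShamC-21 was −0.22 (−0.81 to 0.37) and −0.20 (−0.59 to 0.20), and none of these 4 comparisons passed.

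The Clcn3 calls did not rest on the arrays that stood apart by their markers or by the GAPDH control. Without ShamC-60 replicates 1 and 4 the differences at 60 days were 2.48 and 1.82 log2 for 1392453_at and 1380547_at. Without Spi-21 replicates 5 to 8 those at 21 days were 2.03 and 0.88, and without Spi-21 replicates 1 to 4 they were 2.37 and 1.23. With a covariate for glial markers they were 2.26 and 0.95 at 21 days and 2.47 and 1.49 at 60 days. All of these passed at an adjusted p under 0.05 in limma.

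Among the Spi-21 arrays, replicate 4 had the lowest 1392453_at signal, 7.94, and the highest microglial marker mean, 7.49. Replicate 8 had the highest 1380547_at signal, 7.88. After subtraction of the group means, the signals of the 2 probe sets correlated across the 27 arrays with Pearson's r of 0.525 and Spearman's rho of 0.357, given as a description because the probe sets share the arrays.

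The probe sets most like Clcn3 1392453_at over the 27 arrays belonged to Adgrb2, Sympk, Sptbn4, Zfp771 and Dapk3. All 5 were higher after transection, by 1.54 to 2.01 log2 at 21 days and 1.65 to 2.02 at 60 days. Likeness was measured as the root mean square difference of log2 signals after each probe set's own mean was subtracted, so group differences stayed in. It was 0.517 for Adgrb2, an adhesion G protein-coupled receptor of the brain, and 0.522 for Sympk, a scaffold of mRNA 3'-end processing. For Sptbn4, a spectrin found where axons begin, it was 0.533, for Zfp771, a zinc finger protein, 0.559, and for Dapk3, a protein kinase, 0.595. The median over all other probe sets tested was 1.24. Among the 11879 other probe sets with 1 symbol, the second Clcn3 probe set came eighth at 0.646.

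Over all members, 5 of 18 probe sets were higher and 0 lower at 21 days, 27.8%, where 22.6% of all probe sets passed in limma (11.3% higher and 11.2% lower). At 60 days 3 were higher and 1 lower, 22.2%, beside 19.1% of all probe sets (10.2% higher and 8.92% lower). In the mean of both days 8 were higher and 1 lower, 50%, beside 39.4% of all probe sets (20.4% higher and 19% lower). Counting only the higher ones, the members' shares were 27.8%, 16.7% and 44.4% in these 3 comparisons, and counting only the lower ones 0%, 5.56% and 5.56%. With 18 probe sets, 1 call is 5.56% of the members. The median member difference was 0.17 log2 at 21 days and 0.13 at 60 days, and that of all probe sets 0.01 and 0.02. In Clcn3 all transected arrays exceeded all sham arrays for both probe sets, which held for 3.07% of all probe sets at 21 days and 4.78% at 60 days.

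**Figure D2:**
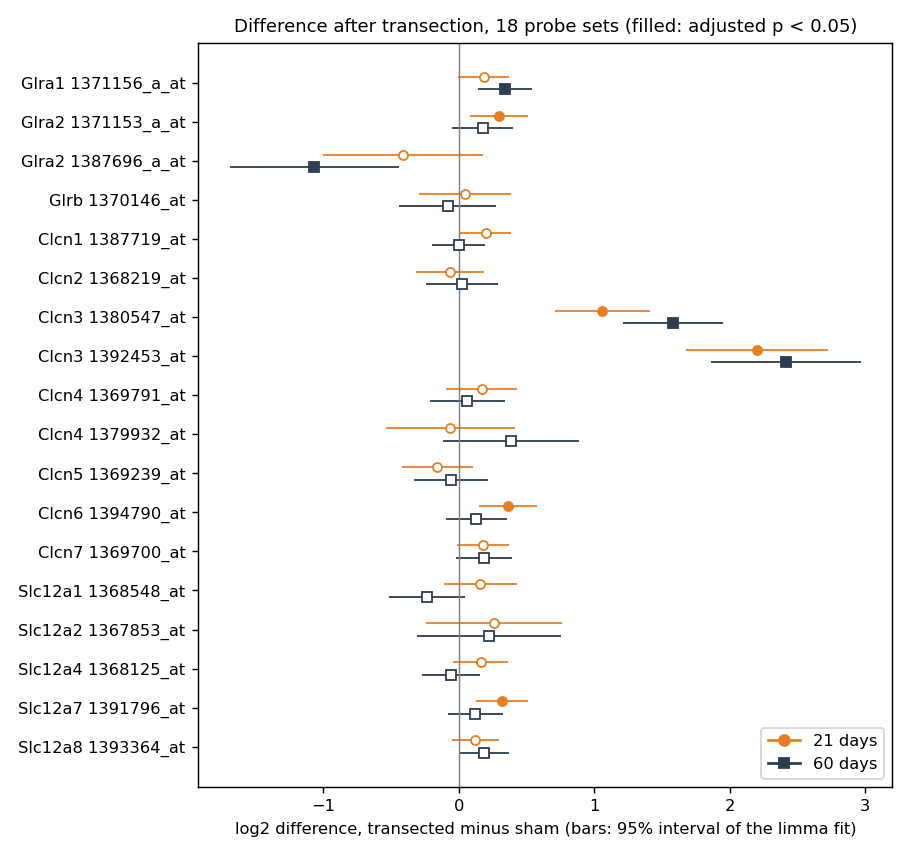
Log2 difference, transected minus sham (x axis), for each of the 18 probe sets at 21 and 60 days, with 95% intervals of the limma fit; filled points passed at an adjusted p under 0.05. The 2 Clcn3 probe sets lie between 1.06 and 2.41, and Glra2 1387696_a_at lies furthest below 0 at 60 days, at −1.07.

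Most members lay in the dim part of the array. By mean signal over the 27 arrays, 7 of the 18 were in the lowest of 5 equal signal classes of all probe sets, 4 in the second, 4 in the third, 1 in the fourth and 2 in the highest. The 2 in the highest class were Clcn3 1392453_at and Slc12a2. In the lowest class 10.6% of all probe sets were higher and 4.42% lower at 21 days, and 3.02% and 3.45% at 60 days. The median difference of all probe sets also varied with signal. At 21 days it was 0.06 in the lowest class, 0.08 in the second and −0.12 in the highest. At 60 days these were 0.03, 0.05 and −0.05. No detection calls were used, so whether the dim probe sets measured their genes was not tested.

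**Figure D3:**
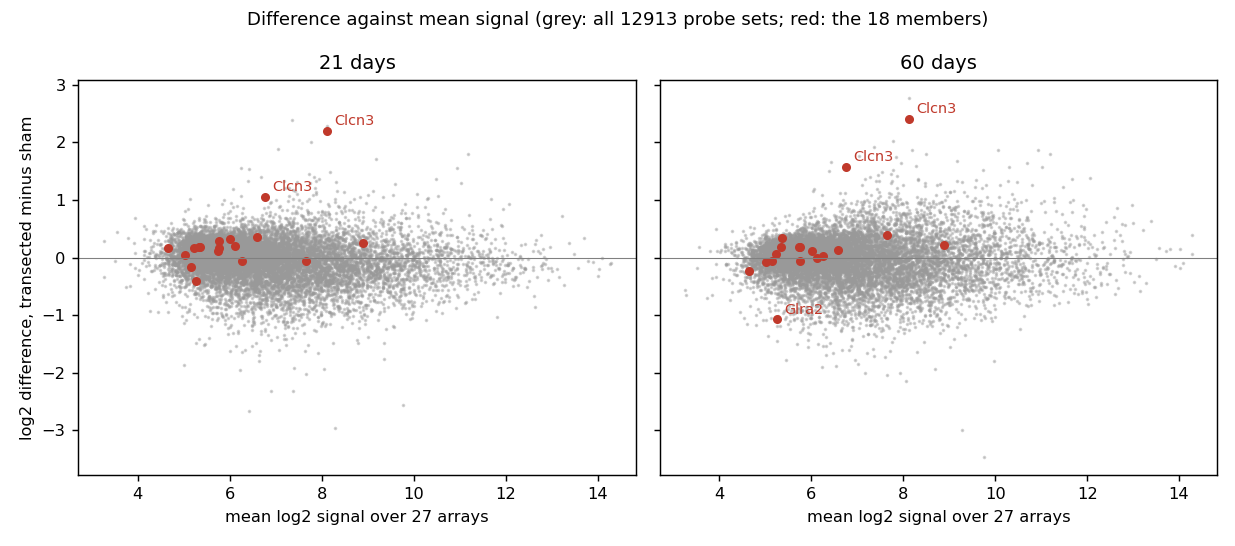
Log2 difference, transected minus sham (y axis), against mean log2 signal over the 27 arrays (x axis) at 21 days (left) and 60 days (right); grey points are all 12913 probe sets and red points the 18 members. Clcn3 lies at or near the upper edge in both panels and most other members lie near 0 at the left of the cloud.

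Among the glycine receptor genes, Glra1 was slightly higher after transection, the 2 probe sets of Glra2 went in opposite directions, and Glrb did not pass. Glra1, the alpha subunit of most adult spinal glycine receptors, had a lowest, median and highest signal of 5.21, 5.52 and 5.65 in Spi-60, and the ShamC-60 arrays read 5.15, 5.34, 4.94, 5.06 and 5.27. It was higher by 0.34 ± 0.0970 log2 at 60 days, 1.26-fold (limma adjusted p = 0.0158), and 7 of 8 Spi-60 arrays exceeded every ShamC-60 array. The call was lost without ShamC-60 replicate 3 (0.29, adjusted p = 0.0541) and without replicates 1 and 4 together (0.31, adjusted p = 0.126). At 21 days Glra1 was 5.22, 5.44 and 5.64 in Spi-21, against 5.07, 5.22 and 5.54 in ShamC-21. That difference of 0.18 did not pass (adjusted p = 0.150), with the groups overlapping. The mean of both days was 0.26 ± 0.0668 (limma adjusted p = 0.00326), and this call was kept without any 1 array (adjusted p up to 0.0093) and without ShamC-60 replicates 1 and 4 (adjusted p = 0.0174).

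Glra2 encodes an alpha subunit that predominates before birth. Its probe set 1371153_a_at had a lowest, median and highest signal of 5.67, 5.89 and 6.32 in Spi-21, against 5.44, 5.60 and 5.75 in ShamC-21. It was higher by 0.30 ± 0.103 at 21 days (limma adjusted p = 0.0391), with 5 of 8 Spi-21 arrays above every ShamC-21 array. This call was lost without any of 7 single arrays, Spi-21 replicates 2, 3 and 6 and ShamC-21 replicates 1, 4, 5 and 6, and the leave-one-out differences ran from 0.24 to 0.33 with adjusted p up to 0.0981. Without Spi-21 replicates 1 to 4 it was 0.17 (adjusted p = 0.336). At 60 days the difference was 0.17 (adjusted p = 0.264). The mean of both days was 0.24 ± 0.0750 (limma adjusted p = 0.0145). That call was kept without any 1 array (adjusted p up to 0.0347) but not without Spi-21 replicates 1 to 4 (0.17, adjusted p = 0.0800) or ShamC-60 replicates 1 and 4 (0.21, adjusted p = 0.0655).

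The other Glra2 probe set, 1387696_a_at, had signals of 4.76, 4.87 and 5.27 in Spi-60, lowest, median and highest, and the ShamC-60 arrays read 6.00, 5.51, 4.86, 8.10 and 5.60. It was lower by 1.07 log2 at 60 days (SE 0.305, limma adjusted p = 0.0155). ShamC-60 replicate 4, the array with the lowest motor neuron and the highest inhibitory interneuron marker mean, was the one at 8.10. Without it the difference was −0.54 (adjusted p = 0.0532), and without replicates 1 and 4 it was −0.38 (adjusted p = 0.274). The Spi-60 arrays overlapped ShamC-60 replicate 3, at 4.86. At 21 days the difference was −0.41 (adjusted p = 0.313), with all 8 Spi-21 arrays below the ShamC-21 mean. The mean of both days was −0.74 ± 0.21 (limma adjusted p = 0.0069), a call kept without any 1 array (adjusted p up to 0.0151). It was −0.48 without ShamC-60 replicate 4 and −0.39 without replicates 1 and 4 (adjusted p = 0.0184).

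Glrb, the beta subunit that anchors the receptor at synapses, had signals of 4.03, 5.03 and 5.75 in Spi-21, against 4.57, 5.06 and 5.23 in ShamC-21. At 60 days they were 4.86, 5.04 and 5.22 in Spi-60, and 5.30, 5.01, 5.14, 5.25 and 4.95 in ShamC-60. The groups overlapped at both days. Differences were 0.04 (95% interval −0.30 to 0.38, limma adjusted p = 0.877) and −0.08 (−0.44 to 0.28, adjusted p = 0.781).

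**Figure D4:**
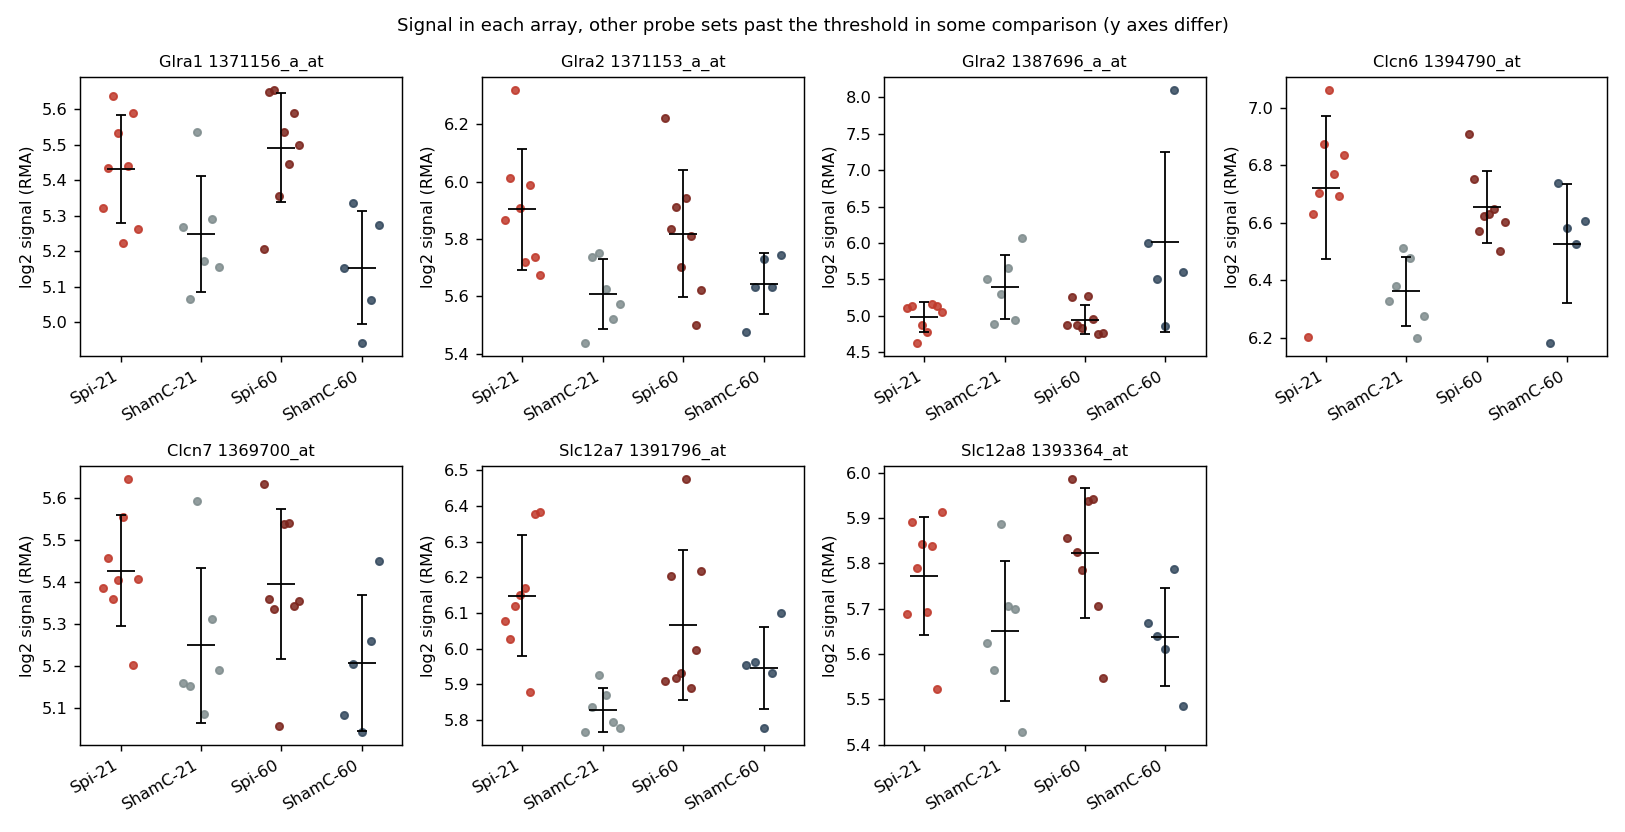
Log2 signal (y axis, scaled per panel) in each array by group (x axis) for the 7 probe sets other than Clcn3 that passed the limma test at 21 days, at 60 days or in their mean; lines are means and bars SD. ShamC-60 replicate 4 is the point at 8.10 in Glra2 1387696_a_at.

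Among the other ClC genes, Clcn6, an exchanger of late endosomes, was higher at 21 days. Its lowest, median and highest signals were 6.20, 6.74 and 7.06 in Spi-21, against 6.20, 6.35 and 6.51 in ShamC-21. Of the 8 Spi-21 arrays 7 exceeded every ShamC-21 array, and the exception was replicate 1. The difference was 0.36 ± 0.104, 1.28-fold (limma adjusted p = 0.0149), and 0.24 without Spi-21 replicates 5 to 8 (adjusted p = 0.127). At 60 days it was 0.13 (adjusted p = 0.433). The test between the days did not pass either (−0.23, 95% interval −0.54 to 0.08, adjusted p = 0.788). The mean of both days was 0.24 (limma adjusted p = 0.0123), kept without any 1 array but not without ShamC-60 replicates 1 and 4 (0.19, adjusted p = 0.078) or Spi-21 replicates 5 to 8 (0.18, adjusted p = 0.0618).

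Clcn4, an endosomal exchanger related to Clcn3, split the Spi-21 arrays. On probe set 1379932_at replicates 1 to 4 of Spi-21 read 7.34, 7.19, 6.42 and 7.25, and replicates 5 to 8 read 7.80, 8.03, 7.96 and 8.21. ShamC-21 arrays ran from 7.52 to 7.66, so the first 4 were below every one of them and the last 4 above. The mean difference of −0.06 (limma adjusted p = 0.868) therefore describes neither set. The same arrays were split by the GAPDH control as given above. Without Spi-21 replicates 5 to 8 the difference was −0.54 (adjusted p = 0.0875), and without replicates 1 to 4 it was 0.41 (adjusted p = 0.232). Over all probe sets, 3903 passed at 21 days in the first setting and 1335 in the second, against 2917 with all arrays. How many other probe sets split the Spi-21 arrays in this way was not counted.

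At 60 days Clcn4 1379932_at had signals of 7.50, 7.90 and 8.54 in Spi-60, and the ShamC-60 arrays read 8.16, 6.96, 7.44, 8.25 and 6.88. The highest sham arrays were replicates 4 and 1, which stood apart by their markers. The difference was 0.39 ± 0.245 (limma adjusted p = 0.274) with all arrays and 0.83 (adjusted p = 0.0454) without those 2. The dimmer Clcn4 probe set, 1369791_at, differed by 0.17 and 0.06 at the 2 days (adjusted p = 0.353 and 0.787).

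**Figure D5:**
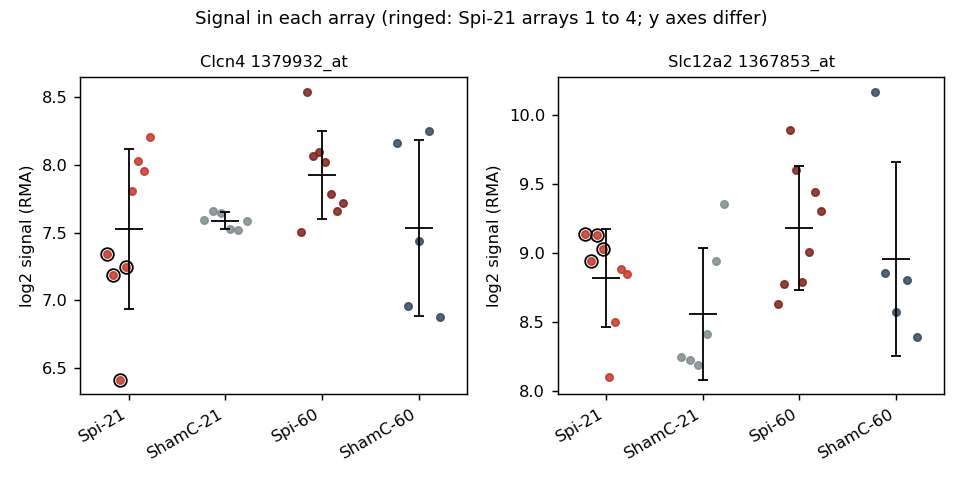
Log2 signal (y axis) of Clcn4 1379932_at and Slc12a2 in each array by group (x axis); lines are means, bars SD, and rings mark Spi-21 replicates 1 to 4. The Spi-21 arrays of Clcn4 lie on both sides of the narrow ShamC-21 range of 7.52 to 7.66, and the highest Slc12a2 point is ShamC-60 replicate 1 at 10.17.

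The remaining ClC genes gave no call at a single day. Clcn7, the lysosomal exchanger, differed by 0.18 at 21 days (limma adjusted p = 0.175) and 0.19 at 60 days (adjusted p = 0.188). It passed in the mean of both days at 0.18 (adjusted p = 0.0367), which was lost without any of 12 single arrays (up to 0.0759). Clcn1, the chloride channel of skeletal muscle, differed by 0.20 at 21 days (adjusted p = 0.114), which passed without Spi-21 replicate 6 (0.25, adjusted p = 0.0327), and by −0.001 at 60 days. Clcn2, a plasma membrane channel, differed by −0.07 and 0.02. Clcn5, an endosomal exchanger best known in the kidney, differed by −0.16 and −0.06. For Clcn1, Clcn2 and Clcn5 the groups overlapped at both days.

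Of the cotransporters, Slc12a7, a potassium-chloride cotransporter, was higher at 21 days. Its lowest, median and highest signals were 5.88, 6.13 and 6.38 in Spi-21, against 5.77, 5.82 and 5.93 in ShamC-21. The difference was 0.32 ± 0.0931, 1.25-fold (limma adjusted p = 0.0156), with 7 of 8 Spi-21 arrays above every ShamC-21 array. Without Spi-21 replicates 5 to 8 it was 0.27 (adjusted p = 0.0523). At 60 days the difference was 0.12 (adjusted p = 0.400), and the test between the days did not pass (−0.20, adjusted p = 0.791). The mean of both days was 0.22 (limma adjusted p = 0.0114), a call kept without any 1 array (adjusted p up to 0.0273).

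Slc12a2, the sodium-potassium-chloride cotransporter that loads chloride into neurons and glia, did not pass at either day. Its signals were 8.10, 8.91 and 9.14 in Spi-21, lowest, median and highest, against 8.19, 8.33 and 9.35 in ShamC-21. At 60 days they were 8.63, 9.16 and 9.89 in Spi-60, and the ShamC-60 arrays read 10.17, 8.86, 8.57, 8.81 and 8.39. The groups overlapped at both days. The differences were 0.26 (95% interval −0.24 to 0.76, limma adjusted p = 0.466) and 0.22 (−0.31 to 0.75, adjusted p = 0.577).

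The Slc12a2 signal was highest in ShamC-60 replicate 1, the array with the highest oligodendrocyte marker mean, 8.98. Within ShamC-21 it was highest in replicate 6, 9.35, which also had the highest oligodendrocyte mean of that group, 8.32. Both are sham arrays, and the source of the Slc12a2 signal was not tested. With the covariate for glial markers the Slc12a2 differences were −0.06 at 21 days and −0.05 at 60 days. Without ShamC-60 replicate 1 the mean of both days was 0.39 and passed (adjusted p = 0.0493), against 0.24 with all arrays.

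Slc12a4, a widely expressed potassium-chloride cotransporter, differed by 0.16 (limma adjusted p = 0.245) and −0.06 (adjusted p = 0.746). Slc12a8, a distant member of the family, differed by 0.12 and 0.19, and its mean of 0.15 passed (adjusted p = 0.0479) but was lost without any of 20 single arrays. Slc12a1 is the sodium-potassium-chloride cotransporter of the kidney. Its lowest, median and highest signals were 4.34, 4.48 and 4.67 in Spi-60, and the ShamC-60 arrays read 4.87, 4.91, 4.57, 4.70 and 4.68. All 8 Spi-60 arrays lay below the ShamC-60 mean, and the difference was −0.24 (adjusted p = 0.227).

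No member changed its transection difference between 21 and 60 days at an adjusted p under 0.05 in limma, nor did any of the 12913 probe sets (0%). At an unadjusted p under 0.05 there were 2 members, Clcn3 1380547_at (0.52) and Slc12a1 (−0.40). Within transected rats 0.0852% of all probe sets passed between the days and within sham rats 0%, and no member was among them. At an unadjusted p under 0.05 there was 1 member within transected rats, Slc12a1 (−0.25), and none within sham rats.

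Of the genes around inhibitory synapses, 22 of the listed partners of glycine and GABA transmission were measured. At 21 days 2 were higher and 2 lower, with a median difference of −0.03, and at 60 days 7 were higher and 0 lower, with a median of 0.11. At 21 days 9.09% of the list was thus higher and 9.09% lower, beside 11.3% and 11.2% of all probe sets. At 60 days 31.8% was higher and 0% lower, beside 10.2% and 8.92%. In this and the later lists the brightest probe set stood for each gene, whereas these shares cover all probe sets. At 60 days these shares grew with signal, from 3.02% higher and 3.45% lower in the lowest signal class to 15.9% and 15.6% in the highest. At 21 days only the share lower grew, from 4.42% to 18.7%. The share higher at 21 days was 10.6% in the lowest class and 9.18% in the highest. Slc6a9, the glycine transporter that clears glycine around synapses and is abundant in glia, was the one with the largest rise at each day. It was 8.48 ± 0.428 (SD, n = 8) in Spi-21 and 7.88 ± 0.238 (SD, n = 6) in ShamC-21, a difference of 0.60 (limma adjusted p = 0.0220). At 60 days it was 8.93 ± 0.368 (SD, n = 8) in Spi-60 and 7.96 ± 0.356 (SD, n = 5) in ShamC-60, a difference of 0.97 (limma adjusted p = 0.00119). Its other 2 probe sets differed by 0.39 and 0.27 at 21 days and by 0.36 and 0.20 at 60 days, and the larger passed at each day. Astrocyte marker means ran from 8.53 to 9.29 in Spi-21 against 7.97 to 9.15 in ShamC-21, and from 8.82 to 9.75 in Spi-60 against 8.54 to 9.72 in ShamC-60. With the covariate for glial markers, 0 partners were higher at 21 days and 5 at 60 days. Over all probe sets, 2615 and 2601 passed with it in either direction, against 2917 and 2463 without it.

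The other partners that were higher at 60 days were Shmt2, which makes glycine from serine in mitochondria (0.87), Pfn1, an actin-binding protein (0.59), and Gabarap, which links GABA receptors to microtubules (0.54). Iqsec3, a gephyrin partner of inhibitory synapses (0.50), Dynll2, a dynein light chain that binds gephyrin (0.40, and 0.55 on its other probe set), and Nsf, a vesicle fusion ATPase (0.33), were also higher. Nsf passed at 21 days too (0.25). Dld, a subunit of the glycine cleavage system (−0.96), and Mocs2, which like gephyrin serves molybdenum cofactor synthesis (−0.59), were lower at 21 days. Without ShamC-60 replicates 1 and 4 the count at 60 days was 4, while that over all probe sets fell from 2463 to 797. Leaving out 1 array at a time gave 0 to 3 higher and 1 to 4 lower at 21 days, and 6 to 8 higher and 0 to 3 lower at 60 days. The second Gabarap probe set differed by −0.08 at 60 days.

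The presynaptic genes Slc6a5 and Slc32a1 gave no call. Both were also used above as inhibitory interneuron markers, and samples of dissected motor neurons cannot show whether inhibitory input to them changed. Slc6a5, the neuronal glycine transporter, differed by 0.21 (limma adjusted p = 0.177) and 0.00 (adjusted p = 0.985) at 21 and 60 days. Slc32a1, which loads glycine and GABA into vesicles, differed by −0.32 (adjusted p = 0.552) and −0.53 (adjusted p = 0.351).

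Regulators of cotransporters and ClC proteins moved in both directions. Of 34 measured, 4 were higher and 6 lower at 21 days and 6 higher and 4 lower at 60 days, with medians of 0.00 and 0.05. In either direction this was 29.4% of the list at each day, beside 22.6% and 19.1% of all probe sets. Ckb, brain creatine kinase, which binds the neuronal potassium-chloride cotransporter, was higher by 1.09 ± 0.163 at 21 days (limma adjusted p = 6.45e-05) and 1.14 ± 0.172 at 60 days (adjusted p = 5.22e-05). Prkcb, a protein kinase C, differed by −1.37 and −1.55 on its brighter probe set and by −0.42 and −0.40 on the other, the last of which did not pass (adjusted p = 0.0504). The catalytic subunits of protein phosphatase 1 did not move together: Ppp1cb (−0.75 and −1.003) and Ppp1cc (−0.62 and −0.58) were lower at both days, and Ppp1ca was higher at 60 days (0.38).

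Camk2g, a calcium/calmodulin-dependent kinase, was higher at both days (0.64 and 0.95), as was Ntrk2, the receptor of brain-derived neurotrophic factor (0.70 and 0.76 on its brighter probe set, against 0.13 and 0.07 on the other, which did not pass). Tmem9, which binds endosomal ClC exchangers including that of Clcn3, was higher at 60 days by 0.87 ± 0.154 (limma adjusted p = 0.00033), as was the protease gene Capn1 (0.67). Tmem9b of the same list, named after its value was seen, differed by −0.36 and −0.28 and did not pass (limma adjusted p = 0.122 and 0.267). In the kinase pathway that phosphorylates cotransporters, Wnk1 differed by −0.13 (adjusted p = 0.609) and 0.04 (adjusted p = 0.896), with 0.16 and 0.26 on its other probe set, and Oxsr1 by −0.20 (adjusted p = 0.108) and −0.03 (adjusted p = 0.847). Stk39, which phosphorylates Slc12a2 protein, was lower by 0.67 log2 at 21 days on 1387059_at (adjusted p = 0.0092), and its other probe set, 1370614_s_at, was higher by 0.38 (adjusted p = 0.0369). Cab39l, a partner of the Stk39 kinase, was lower at both days (−0.50 and −0.52). Without Spi-21 replicates 1 to 4 the counts at 21 days were 2 higher and 1 lower, while those over all probe sets fell from 2917 to 1335. Leaving out 1 array at a time gave 3 to 7 higher and 5 to 7 lower at 21 days, and 5 to 6 higher and 3 to 5 lower at 60 days.

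Of 25 other chloride channel genes 2 were higher and 2 lower at 21 days, and 1 was higher and 0 lower at 60 days. These were 16% and 4% of the list, beside 22.6% and 19.1% of all probe sets. Ano10, of the anoctamin family, was higher at both (0.46 and 0.74), and the 60-day call was lost without ShamC-60 replicates 1 and 4. Ano4, of the same family, was lower at 21 days by 0.99 ± 0.197 (limma adjusted p = 0.00105). Clca4 was higher (0.44) and Clic2, a chloride intracellular channel protein, lower (−0.69) at that day. The mean signal of Clca4 was 5.57 log2, in the second lowest signal class, and whether it was detected was not tested. Leaving out 1 array at a time gave 1 to 3 higher and 1 to 4 lower at 21 days, and 1 to 2 higher and 0 to 1 lower at 60 days.

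Of 27 genes of other chloride, bicarbonate and pH transport, 6 were higher and 3 lower at 21 days and 3 higher and 1 lower at 60 days. These were 33.3% and 14.8% of the list, beside 22.6% and 19.1% of all probe sets. The chloride/bicarbonate exchanger gene Slc4a2 was higher at both days (0.45 and 0.86), and Slc4a3, another such exchanger, reached 1.01 ± 0.195 at 60 days (limma adjusted p = 0.000729). Slc26a5, the prestin gene, was higher by 0.34 at both days. Slc17a5, a lysosomal sialic acid transporter, was lower at both (−0.67 and −0.71). The vesicular glutamate transporters went in opposite directions at 21 days, with Slc17a7 higher (0.32) and Slc17a6, named after its value was seen, lower (−0.90, limma adjusted p = 0.0395). Also at 21 days, the anion exchanger gene Slc4a1 (0.23, and 0.33 on its other probe set), its family member Slc4a11 (0.30) and Slc26a10 (0.34) were higher, and Car4, a carbonic anhydrase, was lower (−0.46). Slc26a5, Slc26a10 and Slc17a7 lay in the lowest signal class, at mean signals of 5.38, 5.37 and 5.55 log2, and whether they were detected was not tested. Without Spi-21 replicates 1 to 4 the 21-day counts of this list were 0 higher and 1 lower. Over all probe sets, 1335 passed at 21 days in that setting, against 2917 with all arrays. Leaving out 1 array at a time gave 3 to 7 higher and 1 to 4 lower at 21 days, and 3 to 4 higher and 1 lower at 60 days.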

How the data were processed

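The deposited table holds log2 probe set signals that the authors made by RMA, per the submitters' processing notes. Neither the version of RMA nor the rule for including a probe set is given in the sources used here. All 27 columns were matched to samples by name. Of 12919 probe sets, 6 beta-actin and GAPDH controls were left out. Gene names came from the platform annotation, in which 11880 probe sets had 1 symbol, 320 several and 713 none listed. One limma 3.58.1 fit (lmFit and eBayes, R 4.3.3) held 4 groups without covariates, and two-sided p-values were corrected by Benjamini-Hochberg across 12913 probe sets, with 0.05 as threshold. Python 3.11.15 with pandas 2.3.3, numpy 2.4.6 and matplotlib 3.10.9 was used for the rest. The steps were tested on simulated data. For listed genes, the probe set with the highest mean stood for the gene, and 108 of 181 listed symbols were measured. All member probe sets were named, up to 8 passing genes per list and day by smallest p, the 5 probe sets most like Clcn3, and Slc32a1, Slc6a5, Wnk1, Stk39 and Oxsr1. Members and lists were chosen with earlier results of these data known. Arrays have no count depth, so the number of arrays limits precision, and array medians lay between 6.31 and 6.41. Promoters came from RefSeq (GRCr8). Alternatives were array weights, other normalization, covariates, filters, a replicate block and arrays left out.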

Additional observations from a re-analysis of the deposited data

Results flagged for a closer look

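In 6 of 72 sets of arrays (a member probe set in 1 group), 1 array lay far from the rest by Dixon's criterion, where chance gives about 1 in 20. For Clcn3 1380547_at, Spi-21 replicate 8 was high at 7.88, with the nearest array at 7.27. For Clcn3 1392453_at, Spi-21 replicate 4 was low at 7.94, with the nearest at 8.97, and ShamC-21 replicate 1 was low at 5.85, with the nearest at 6.82. ShamC-21 replicate 6 was low for Clcn4 1369791_at at 4.67, and ShamC-21 replicate 3 was high for Clcn5 at 5.48. ShamC-60 replicate 1 was high for Slc12a2 at 10.17, with the nearest array at 8.86.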

How the results depend on the processing

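Both Clcn3 probe sets kept their direction and passed at 21 and 60 days under 11 other settings, in the mean of both under the 10 that give one, and in all 3 without each of the 27 arrays in turn. The 21-day difference ran from 2.00 to 2.36 (1392453_at) and 0.94 to 1.14 (1380547_at) without 1 array at a time, and the 60-day difference from 2.25 to 2.54 and 1.44 to 1.68. Over all members, no called difference changed sign in 2648 recomputed values, 63 calls were lost and 7 gained, and the cause was not tested. Member counts moved as follows. With a filter that dropped probe sets under the median signal, which leaves fewer members, 3 were higher at 21 days, 3 were higher and 0 lower in the mean of both days, and 0 were lower at 60 days. The count lower at 60 days was also 0 with array weights, with only the 2 groups of the day and without ShamC-60 replicates 1 and 4, and it was 2 without Spi-21 replicates 5 to 8, where Slc12a1 joined. Without 1 array at a time it was 0 to 1, and ShamC-60 replicate 4 gave the 0. Without ShamC-60 replicates 1 and 4, 5 members were higher in the mean, and without Spi-21 replicates 5 to 8, 3 were higher at 21 days. Over all probe sets, 1811 passed at 21 days and 3207 in the mean with the signal filter, 797 at 60 days without ShamC-60 replicates 1 and 4, and 1335 at 21 days without Spi-21 replicates 1 to 4. Without 1 array at a time 1538 to 2760 passed at 60 days, and ShamC-60 replicate 1 or 4 moved the count by over 1.5 times. The difference between days gave 3 calls with array weights and 161 without Spi-21 replicates 1 to 4, against 0 otherwise. Between days within transected rats, 11 passed, against 2 with array weights, 2 with arrays centred on their medians, 1 with the glial covariate, 4 with trend and robust eBayes, 26 without ShamC-60 replicates 1 and 4, 52 and 630 without Spi-21 replicates 5 to 8 and 1 to 4, and 1 to 83 without 1 array at a time. Within sham rats 2 passed with array weights. Deviations of same-numbered arrays of different groups correlated between −0.31 and 0.33. Differently numbered arrays were not compared, so whether the replicate numbers pair samples was not tested. With the replicate block the Clcn3 differences were 2.20 and 1.03 at 21 days and 2.37 and 1.54 at 60 days, and passed. Most members were dim, where signal over background limits what a difference can show.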
